A study of Mus musculus with 16 samples.

Results

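The comparison described here set mouse embryos with the Notch1 genotype 12/- against embryos with the genotype +/-. In both genotypes 1 copy of Notch1 was a deleted (null, -) allele. The opposite copy was wild type (+) in +/- embryos and, in 12/- embryos, an allele called 12, in which the intracellular domain of Notch1 is replaced by that of Notch2. Libraries were chosen by the genotype label alone, which gave 3 libraries of 12/- and 3 of +/-, 6 of the 16 libraries in the series. The other 10 were +/+, +/12 and +/vg (3 each) and 12/vg (1), where vg is a Notch1 allele whose released intracellular domain is less stable. RNA was taken from CD31+ endothelial cells sorted from whole embryos at embryonic day 9.5, and no strain is given in the labels. The labels call endothelial development normal in +/+, +/-, +/12 and +/vg, partly impaired in 12/vg and impaired in 12/-. The labels name no driver that would limit an allele to endothelial cells, so other tissues of these embryos may carry the same alleles. How many embryos went into a library is not labelled, so the p-values reflect only how libraries varied, a variation that may be technical in part.

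Notch1 is a receptor at the cell surface that is cut when a ligand on a neighbouring cell binds it. The released intracellular domain enters the nucleus and switches on genes such as those of the Hes and Hey families. In embryonic endothelium this signal restrains tip cell behaviour during sprouting, supports arterial fate and, in the endocardium, prepares the heart valves. Hypoxia-inducible factors (HIFs) are a separate system: their alpha subunits are marked for destruction by prolyl hydroxylases when oxygen is plentiful, and otherwise activate genes for glycolysis, glucose uptake and angiogenesis.

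Levels are given as FPKM (fragments per kilobase of transcript, relative to the fragments mapped), summed over the transcripts of a gene and scaled between libraries by a median ratio. Differences are on the log2(scaled FPKM + 1) scale, 12/- minus +/-, with their standard error, and adjusted p-values are Benjamini-Hochberg values from limma over all genes tested. Apart from named alternatives, standard errors and p-values rest on a fit to all 16 libraries, with 10 residual degrees of freedom. The n beside a p-value gives only the libraries in the groups compared. The libraries of 12/- held between 1.30 and 1.46 gigabases of aligned sequence. Those of +/- held 1.61, 0.189 and 1.75, so +/- replicate 2 was shallow. Library numbers in the file names fell into a range of 203 to 248 and one of 371 to 380. All 12/- libraries and +/- replicate 3 were in the lower range, and +/- replicates 1 and 2 in the higher, while the labels name no batch. Pearson's r across genes, which are not independent replicates, was 0.922 to 0.925 within 12/- and 0.874 to 0.910 within +/-. Between libraries of 12/- and of +/- it was 0.873 to 0.917, which overlaps the range within +/-. Pan-endothelial markers summed to between 1770 and 2010 FPKM in 12/- and between 1570 and 1800 in +/-, with overlap. Xist and Eif2s3y, transcripts of female and male cells, were both at an FPKM of at least 1 in 5 of the 6 libraries. The exception was +/- replicate 3, with Xist at 21.1 and the Y-linked Eif2s3y, Ddx3y, Kdm5d and Uty at 0. In the lower number range the only +/- library thus lacked male transcripts that all 12/- libraries held, and the part of sex was not tested.

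Of 10550 genes tested, 54 rose in 12/- (0.512% of genes) and 6 fell (0.0569%), at an adjusted p under 0.05. Of the 54, 24 belonged to 6 lists on oxygen and glucose that together had 76 distinct genes tested (glycolytic enzymes, glucose and lactate transport, HIF subunits and hydroxylases, hypoxia-induced genes, collagen hydroxylases, and adrenomedullin). The lists and their members were chosen with earlier results of these data known, which favours that count. For all 54 the 3 libraries of 12/- lay above the 3 of +/-, beside 817 of all genes (7.74%). For 50 of the 54 they lay above every one of the 12 libraries of the genotypes labelled normal, beside 202 of all genes (1.91%). The 54 were called against the same +/- libraries, which are among the 12, so both counts are favoured by that choice. The differences reached at least 1 on the log2 scale for 39 of the 54 and at least 2 for 10. For 5 of the 54 (Cox4i2, Ndufa4l2, Sema4g, Trib3 and Vegfa) the 13 libraries other than 12/- averaged under 1 scaled FPKM, so these 5 were tested only because 12/- was high. At an unadjusted p under 0.05, 710 genes were higher (6.73%) and 529 lower (5.01%).

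**Figure D1:**
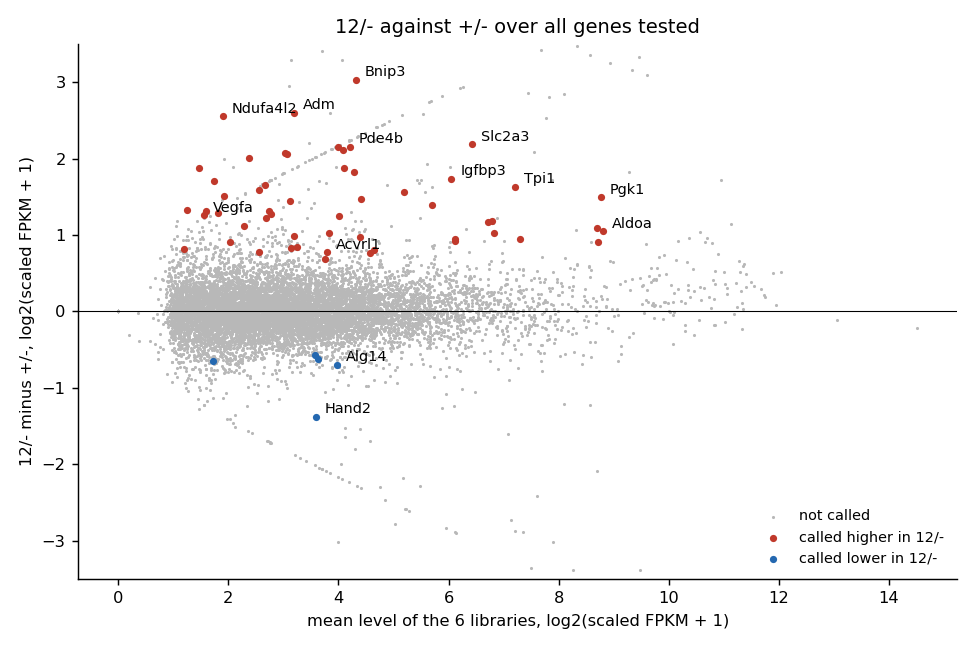
Difference of 12/- and +/- on the log2(scaled FPKM + 1) scale (vertical) against the mean level of the 6 libraries on the same scale (horizontal), 1 point per gene tested, with the called genes in red (higher) and blue (lower). The 54 red points spread over the whole range of levels, and Bnip3 is the highest at 3.03. The axis ends at 3.5 in both directions, which leaves out 30 genes, among them 1 called gene, Mir374.

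The call counts rested on particular libraries and on the pooled spread of all 16. Fitted to the 6 libraries of the 2 groups alone, 5 genes were called higher, 3 of them among the 54, and 0 lower. Without +/- replicate 3 the count of risers was 127, and without 12/- replicate 1, 2 or 3 it was 18, 35 or 25. The same 54 genes kept a positive difference in every alternative run in which they were tested. With only the lower number range, which leaves +/- replicate 3 alone against the 12/- libraries, all 54 were higher and 1 of them was called. With the range as a covariate 29 of the 54 were still called, and without the 2 shallow libraries (+/- replicate 2 and 12/vg) 33 were. The part of depth and of the number range in the counts was not tested further.

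The largest rise among called genes was that of Bnip3, a mitochondrial outer membrane protein that drives mitophagy under low oxygen (mm9 chromosome 7, 146082519 to 146101189). It stood at 4.06, 2.58 and 3.43 FPKM in +/- replicates 1, 2 and 3 and at 35.1, 35.3 and 32.7 in 12/-. The groups were far apart, and neither the shallow library nor the +/- library of the lower number range came near the 12/- values. The rise was 3.03 ± 0.30 (SE, n = 3 against 3; adjusted p = 3.05e-04 by limma), with means of 3.36 ± 0.741 and 34.3 ± 1.46 (SD), a 10.2-fold ratio. The wild-type group stood at 3.71 ± 0.878 and +/12 at 6.21 ± 3.40.

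Adm encodes adrenomedullin, a secreted peptide that acts on endothelial cells and is a known target of HIFs (mm9 chromosome 7, 117771183 to 117773333). Its levels were 0.906, 1.39 and 2.39 FPKM in +/- and 18.8, 9.47 and 15.8 in 12/-. The lowest 12/- library, replicate 2, still lay well above the highest of +/-. Adm rose by 2.60 ± 0.24 (n = 3 against 3; adjusted p = 3.05e-04 by limma). Its receptor parts did not pass: Calcrl, the receptor chain, differed by -0.08 and Ramp2, its partner that gives it its ligand preference, by 0.09. Adm was the 1 gene of 5 tested in the adrenomedullin list that passed, and the median of the list was 0.09 beside 0.00 over all genes.

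Egln3 encodes a HIF prolyl hydroxylase that is itself switched on by HIFs. It measured 5.80, 3.51 and 5.44 FPKM in +/- and 25.8, 21.8 and 27.1 in 12/-, with no overlap. Egln3 rose by 2.15 ± 0.24 (n = 3 against 3; adjusted p = 0.00106 by limma). The other hydroxylases, Egln1 and Egln2, differed by 0.65 (adjusted p = 0.134 by limma) and 0.07. The RNAs of the alpha subunits did not pass either: Hif1a, at 11.9, 7.72 and 12.0 in +/- and 8.88, 9.77 and 10.2 in 12/-, differed by -0.10 ± 0.15. Epas1, which encodes HIF-2 alpha, differed by 0.29 ± 0.21, and by -0.34 with only the lower number range. Thus 1 of 9 genes in the list of HIF subunits and hydroxylases passed, with a list median of -0.01. HIF activity is set mostly at the protein level, which these data do not hold.

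The letters before the start site are shown for 4 of the risers, 3 from the low-oxygen response and the glycolytic Tpi1, because the core of the HIF binding word is short and can be read directly. The sequences are the 250 bases that precede the gene start in RefSeq, build GRCm38.p6, printed 5′ to 3′ on the gene's strand, and capitals mark ACGTG or GCGTG on either strand, overlaps included. The windows are Bnip3 at chr7:138909507-138909756 (minus strand), Adm at chr7:110627407-110627656 (plus), Egln3 at chr12:54203875-54204124 (minus) and Tpi1 at chr6:124814159-124814408 (minus).
Bnip3: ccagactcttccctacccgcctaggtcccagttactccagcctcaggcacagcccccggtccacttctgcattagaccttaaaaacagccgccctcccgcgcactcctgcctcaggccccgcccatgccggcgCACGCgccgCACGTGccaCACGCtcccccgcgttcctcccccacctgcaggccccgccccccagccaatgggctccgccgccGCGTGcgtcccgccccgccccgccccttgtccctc
Adm: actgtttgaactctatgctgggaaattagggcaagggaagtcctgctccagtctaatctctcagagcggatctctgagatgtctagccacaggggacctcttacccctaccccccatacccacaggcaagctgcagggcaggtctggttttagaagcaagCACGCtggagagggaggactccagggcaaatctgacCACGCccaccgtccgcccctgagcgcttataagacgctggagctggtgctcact
Egln3: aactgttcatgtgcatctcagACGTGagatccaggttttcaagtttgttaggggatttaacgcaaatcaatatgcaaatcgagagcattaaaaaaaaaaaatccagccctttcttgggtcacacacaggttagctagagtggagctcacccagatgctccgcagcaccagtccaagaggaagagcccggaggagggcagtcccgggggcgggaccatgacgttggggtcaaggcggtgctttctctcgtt
Tpi1: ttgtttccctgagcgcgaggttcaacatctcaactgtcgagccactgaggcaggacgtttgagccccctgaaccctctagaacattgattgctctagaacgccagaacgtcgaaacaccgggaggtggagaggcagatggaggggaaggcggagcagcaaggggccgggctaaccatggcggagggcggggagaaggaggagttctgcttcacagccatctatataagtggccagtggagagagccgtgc
Bnip3 had 5 matches in its window, counting a palindrome once per strand, Adm had 2, both of the GCGTG type, Egln3 had 1 and Tpi1 had 0. Windows were at hand for 41 of the 54 risers and for 8201 of the 10550 genes tested. ACGTG was in 48.8% of the risers' windows and in 22.8% of all windows. For GCGTG the shares were 53.7% and 47.6%, and for either word 78.0% and 59.1%. GTGGGAA, the word bound by the nuclear partner of Notch, was in 1 riser's window (2.44%) and in 4.96% of all. These shares are descriptions of 250 bases each, and a match is not a bound site.

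Hypoxia-responsive genes of the mitochondrion and of stress made up the list with the highest single values. Of 18 tested, 8 rose, 0 fell, and all 18 differences were positive, which held for 49.6% of all genes. Their median was 0.73. The groups did not overlap for 14 of the 18, beside 817 of all genes (7.74%). Ndufa4l2, a subunit-like protein that lowers respiratory chain activity, was at 0.0718, 0 and 0.178 FPKM in +/- and at 6.62, 4.76 and 4.79 in 12/-. It was thus near or at 0 in every +/- library and present in every 12/- library, and rose by 2.55 ± 0.25 (n = 3 against 3; adjusted p = 3.05e-04 by limma). Ndufa4l2 passed the filter on low values only through the 12/- libraries, and it was not tested at a mean FPKM of at least 5.

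Bhlhe40, a circadian and hypoxia-responsive repressor, rose by 2.07 ± 0.24, from 2.43, 1.41 and 2.60 FPKM to 12.8, 9.09 and 14.7. Ddit4, an inhibitor of mTORC1 signalling, rose by 2.01 and Ankrd37, a small HIF target, by 1.83. Stc2, a secreted glycoprotein, rose by 1.59, and Bnip3l, the mitophagy relative of Bnip3, by 0.80. Ndrg1, a stress-responsive protein, was uneven within 12/-, at 19.3, 5.45 and 13.1 FPKM beside 0.894, 3.00 and 2.33 in +/-. It rose by 2.07 ± 0.40 (n = 3 against 3; adjusted p = 0.0408 by limma), although its lowest 12/- library lay within the range of the 12 libraries labelled normal. Stc1 (0.95, adjusted p = 0.0899), Kdm3a (0.66) and Mxi1 (0.58) were higher in all 3 libraries of 12/- than in +/- but did not pass.

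**Figure D2:**
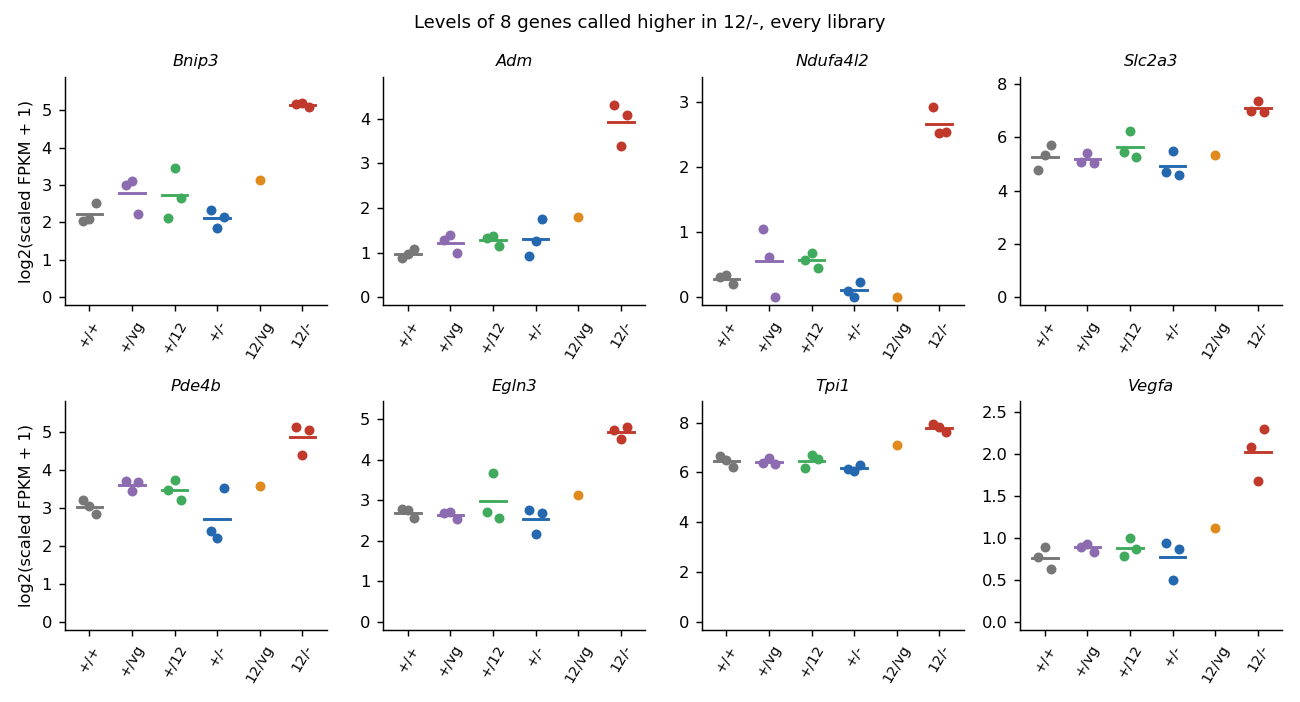
Levels of 8 genes that rose, in log2(scaled FPKM + 1), for every library, in 6 genotype groups, with 1 point per library and a bar at the group mean. The 3 libraries of 12/- lie above all 12 libraries of the genotypes labelled normal in each panel, and the 1 library of 12/vg lies below the lowest 12/- library.

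Glycolytic enzymes had the highest median of the 30 pathway lists. Of 17 tested, 8 rose and 0 fell, all 17 differences were positive, and that median was 1.05 beside 0.00 over all genes. For 11 of the 17 the 12/- libraries lay above all 12 libraries labelled normal, beside 202 of all genes (1.91%). The +/- libraries, against which genes were called, are among the 12, which favours the count. Tpi1, triose phosphate isomerase (mm9 chromosome 6, 124760610 to 124764314), stood at 70.1, 64.9 and 77.8 FPKM in +/- and at 246, 225 and 196 in 12/-. Its groups were wide apart, and the rise was 1.63 ± 0.16 (n = 3 against 3; adjusted p = 3.05e-04 by limma).

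Upstream of Tpi1 in the pathway, Gpi1, which interconverts hexose phosphates, rose by 1.17 and Aldoa, the aldolase, by 1.05. Pfkp, a form of the committed enzyme phosphofructokinase, rose by 1.27 ± 0.15, from 2.55, 2.74 and 3.79 FPKM to 9.62, 8.74 and 7.62. Pfkfb3, which makes an activator of phosphofructokinase and is known for driving endothelial sprouting, rose by 0.99. Downstream, Pgam1, phosphoglycerate mutase, rose by 1.09. The 2 remaining called members, named after their values were seen, were Pgk1 (1.49) and Pkm2 (0.90), which carry out the steps that yield ATP. Eno1, enolase, differed by 1.22 (adjusted p = 0.0765), Pfkl by 1.11 (0.0659) and Hk2, a hexokinase, by 1.06 (0.152), with libraries apart but no pass in limma. Ldha, lactate dehydrogenase, was at 593, 1210 and 449 in +/- and 1090, 934 and 1030 in 12/-. The shallow +/- library was the highest of all 6 for Ldha, and the difference of 0.57 did not pass.

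Among transporters, Slc2a3, the glucose transporter GLUT3, stood at 25.0, 43.5 and 23.3 FPKM in +/- and at 127, 165 and 124 in 12/-. It rose by 2.19 ± 0.30 (n = 3 against 3; adjusted p = 0.00453 by limma), a 4.53-fold ratio of the means, with no overlap. Slc16a3, the lactate exporter MCT4, rose by 1.47 ± 0.27 from 9.37, 12.8 and 8.60 to 33.9, 31.5 and 24.9. Slc2a1, the main endothelial glucose transporter GLUT1, was at 320, 505 and 323 in +/- and 688, 610 and 491 in 12/-. Its groups overlapped through the shallow library, and the difference of 0.66 did not pass (adjusted p = 0.231 by limma). Pdk1, a kinase that inhibits pyruvate dehydrogenase, differed by 0.75 and also did not pass. In the list of glucose and lactate transport and pyruvate fate 2 of 16 passed and the median was 0.21, which was 0.05 with only the lower number range or with the range as a covariate and 0.10 without the shallow libraries. In the list of oxidative phosphorylation 0 of 40 passed in either direction by limma, while an unadjusted p under 0.05 was reached by 1 gene upward and 2 downward, and the median was 0.03.

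Of 11 enzymes that modify and fold collagen, 4 rose and 0 fell, with a median of 0.52 (0.34 with only the lower number range). For 8 of 11 the libraries lay apart with 12/- higher, beside the 7.74% of all genes. Plod2, a lysyl hydroxylase that prepares collagen for cross-linking, had the smallest p of all genes. It was at 3.86, 3.21 and 3.83 FPKM in +/- and 10.4, 12.5 and 12.1 in 12/-, and rose by 1.45 ± 0.12 (n = 3 against 3; adjusted p = 1.44e-04 by limma). Its replicates were close together in both groups. P4ha2, a collagen prolyl hydroxylase subunit, rose by 1.65, Ero1l, an oxidase of the endoplasmic reticulum, by 1.03, and Loxl2, a collagen cross-linking oxidase, by 0.98. P4ha1 differed by 0.92 (adjusted p = 0.0527 by limma).

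The list of unfolded protein and amino acid stress had 1 riser among 17, Trib3, with a median of -0.02. Trib3, a pseudokinase of the stress response, was at 0.113, 0 and 0.281 FPKM in +/- and at 4.69, 1.51 and 3.90 in 12/-. It rose by 1.87 ± 0.30, from levels near 0, and passed the filter on low values only through the 12/- libraries.

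Vegfa, the principal angiogenic growth factor, stood at 0.911, 0.411 and 0.833 FPKM in +/- and at 3.26, 2.21 and 3.93 in 12/-. All 12/- libraries were above all of +/-, and Vegfa rose by 1.26 ± 0.19 (n = 3 against 3; adjusted p = 0.00858 by limma). Vegfa passed the filter on low values only through the 12/- libraries, which favours its call. Its receptors did not pass: Flt1, the decoy receptor, differed by 0.71 (adjusted p = 0.0595 by limma) with no overlap, and Kdr, the main signalling receptor, by 0.21. In the VEGF list 1 of 8 passed, with a median of 0.19.

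Of 24 genes of tip cells and sprouting, 3 rose and 0 fell, with a median of 0.26 (0.11 with only the lower number range). They were Adm, Igfbp3, an IGF binding protein, and Kcne3, a potassium channel subunit found in tip cells. Kcne3 was at 26.2, 25.8 and 30.9 FPKM in +/- and 88.0, 59.8 and 76.2 in 12/-, a rise of 1.39 ± 0.23. Igfbp3 was at 34.1, 16.5 and 40.3 and at 133, 73.8 and 93.3, a rise of 1.74 ± 0.31, and also belongs to the arterial and IGF lists. Angptl4 (1.04) and Nid2 (0.93) did not pass. In the IGF list Igfbp3 was the 1 of 11 that passed.

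Cav1, the structural protein of caveolae, stood at 4.35, 5.42 and 10.1 FPKM in +/- and at 29.2, 22.4 and 25.6 in 12/-. The +/- library of the lower number range was the highest of its group, and the rise of 1.87 ± 0.25 (n = 3 against 3; adjusted p = 0.00343 by limma) was 1.25 with that library alone as the control. Cav1 was 1 of 6 in the caveolae list, whose median was -0.03. Sparcl1, a secreted matrix protein of the Sparc family, was at 4.77, 4.28 and 7.28 in +/- and 31.1, 22.5 and 25.9 in 12/-, and rose by 2.11 ± 0.20. In the basement membrane and Sparc list 1 of 19 rose and 1 fell, with a median of 0.20 (0.05 with only the lower number range).

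Of 27 pan-endothelial genes 2 rose: Clec14a, a lectin-like surface protein, by 0.84 and Eltd1, an adhesion receptor, by 0.68. Pecam1, which encodes the CD31 used in the sort, differed by 0.34 and Cdh5, the junction protein VE-cadherin, by 0.18, and neither passed. Cdh5 differed by -0.09 with only the lower number range. Of 18 arterial genes 2 rose, Igfbp3 and Acvrl1, a receptor for BMP9 and BMP10, which rose by 0.77 ± 0.15 from 8.30, 7.93 and 11.6 to 19.8, 14.2 and 15.5. Acvrl1 was also the 1 of 22 that passed among BMP and TGF-beta receptors, Smads and Id genes, where Smad7, an inhibitor of the pathway, differed by 0.60 (adjusted p = 0.0713 by limma). Among 9 venous genes and 22 endothelial transcription factors 0 passed by limma, and the medians were 0.09 in both lists. At an unadjusted p under 0.05, 1 venous gene was lower and 3 of the transcription factors were higher.

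The Notch pathway itself yielded 0 genes called by limma, among 12 receptors, ligands and Fringe genes, 21 cleavage and nuclear cofactors, and 15 targets. At an unadjusted p under 0.05 these lists had 3, 0 and 0 genes higher and 0, 2 and 1 lower. Notch1 (mm9 chromosome 2, 26313422 to 26359342) was at 16.4, 20.0 and 23.2 FPKM in +/- and 19.7, 16.2 and 15.4 in 12/-, with overlap and a difference of -0.20 ± 0.15. In +/+ it stood at 20.5 ± 2.92, so the +/- libraries (19.9 ± 3.39) were not lower, and the sources used here do not say which part of the gene the null allele lacks. Notch1 FPKM therefore does not check the null label. Notch2, whose intracellular part the 12 allele carries, was at 2.33, 3.41 and 2.25 in +/- and 4.11, 4.37 and 3.39 in 12/-, a difference of 0.45 ± 0.15 (adjusted p = 0.249 by limma). It was 4.19 ± 0.263 in +/12 and 2.96 ± 0.323 in +/+.

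The receptor and ligand list had a median of 0.42, which was 0.04 with only the lower number range. The ligands Dll4 and Jag2 differed by 0.43 and 0.91 (adjusted p = 0.163 by limma for Jag2), and Jag1 by -0.14. Among targets, Hes1, a repressor that is a direct target of Notch, was at 34.3, 36.6 and 44.3 FPKM in +/- and 23.3, 20.6 and 18.9 in 12/-. The groups of Hes1 did not overlap, which was so for 676 of all genes in this direction (6.41%), but its difference of -0.84 ± 0.27 did not pass (n = 3 against 3; adjusted p = 0.231 by limma). In +/12 its libraries ranged from 19.9 to 46.4. Hey1 (-0.14), Hey2 (-0.14) and Nrarp (0.30), a feedback inhibitor, did not pass either, and the target list had a median of 0.04.

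**Figure D3:**
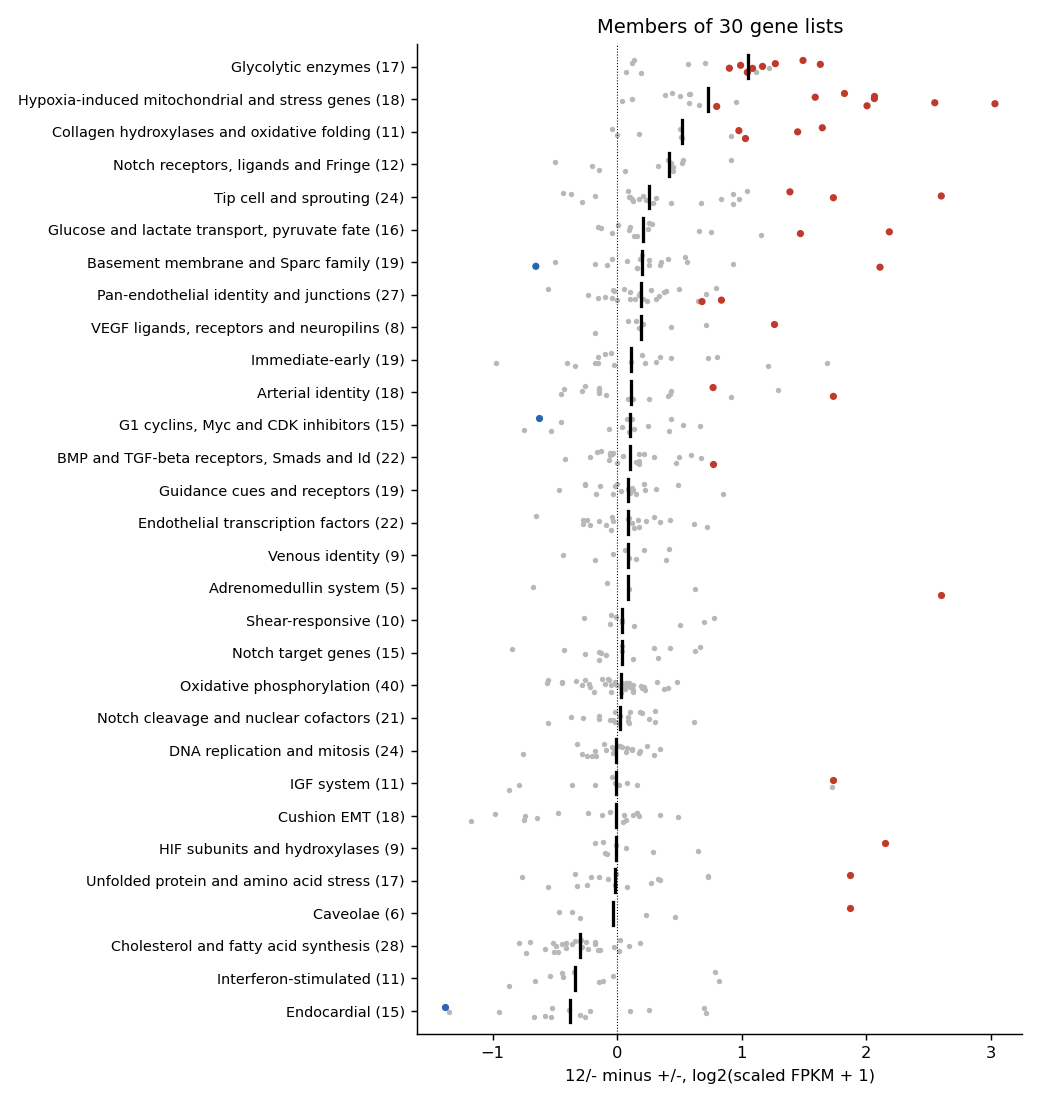
Difference of 12/- and +/- on the log2(scaled FPKM + 1) scale for each tested member of 30 gene lists, with the number tested in brackets, called genes in red (higher) or blue (lower), other genes in grey and a black bar at the median. Glycolytic enzymes have the highest median, 1.05, and endocardial genes the lowest, -0.38.

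The 21 risers in none of the pathway lists included Pde4b, a phosphodiesterase that breaks down cyclic AMP, at 4.26, 3.58 and 10.4 FPKM in +/- and 33.9, 19.9 and 32.3 in 12/-. Pde4b rose by 2.16 ± 0.30 (n = 3 against 3; adjusted p = 0.00453 by limma), and by 1.35 with only the lower number range, where the control library was the highest of +/-. Cox4i2, a cytochrome oxidase subunit isoform, rose by 1.71 ± 0.27, from 0.347, 0.895 and 0.426 to 4.64, 2.93 and 4.75. Cox4i2 too passed the filter on low values only through the 12/- libraries. Others are named after their values were seen. Enzymes of sugar and nucleotide metabolism were among them, namely Upp1, uridine phosphorylase (1.56), Pygl, glycogen phosphorylase (1.51), Ak4, a mitochondrial adenylate kinase (1.32), and Galk1, galactokinase (0.94). Odc1, the first enzyme of polyamine synthesis, rose by 0.94, and Dhps, which uses a polyamine to modify a translation factor, by 0.83. Fam162a, a HIF target of the mitochondrion, rose by 1.18 ± 0.12, from 64.4, 74.4 and 62.1 to 143, 166 and 148. Eif4ebp1, a repressor of translation initiation, rose by 0.92, and Anxa2, an annexin at the plasma membrane, by 1.03.

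Of the 6 genes that fell, Hand2, a transcription factor of the endocardium and heart (mm9 chromosome 8, 59799780 to 59803314), fell most among protein-coding genes. It was at 10.6, 19.8 and 19.1 FPKM in +/- and at 6.00, 4.38 and 6.27 in 12/-. The groups did not overlap, and the difference was -1.38 ± 0.24 (n = 3 against 3; adjusted p = 0.0208 by limma). Part of the gap lay on the side of +/-, since +/+ stood at 11.1 ± 0.637 and +/12 at 8.39 ± 0.708. Against +/+ the difference of Hand2 in 12/- was -0.90 and did not pass (adjusted p = 0.153 by limma).

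Of 15 endocardial genes tested, 1 fell, 4 differences were positive and the median was -0.38, which was -0.67 with only the lower number range. Cdh11, a cadherin of cushion cells, was at 3.90, 2.97 and 9.20 in +/- and 1.32, 1.06 and 1.50 in 12/- (-1.35, adjusted p = 0.119 by limma). Npr3, a marker of the endocardium, was at 9.13, 10.2 and 15.2 and at 6.87, 6.71 and 6.53 (-0.67, adjusted p = 0.0865). Gata5 differed by -0.95. Each of these had its 3 libraries of 12/- below the 3 of +/-, without passing the test. The 4 positive differences were those of Bmp6 (0.71), Edn1 (0.70), Tmem100 (0.26) and Plvap (0.105), and Nfatc1 differed by -0.30, all without passing. In bulk RNA a change in the number of endocardial cells and one in RNA per endocardial cell cannot be told apart, and neither was tested. The cardiomyocyte markers summed to between 36.4 and 48.4 FPKM in 12/- and between 23.0 and 73.5 in +/-, and their part in these values was not tested.

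Frem1, a basement membrane protein, fell by 0.65, from 2.84, 3.16 and 3.13 FPKM to 1.46, 1.45 and 1.82. Ccnd2, the cell cycle gene cyclin D2, fell by 0.62, from 12.9, 15.3 and 13.9 to 9.40, 9.27 and 7.65, as the 1 of 15 that passed among G1 cyclins, Myc and CDK inhibitors. Of 24 genes of DNA replication and mitosis 0 passed by limma, with 1 lower at an unadjusted p under 0.05 and a median of -0.01. Pik3c2b, a class II phosphoinositide kinase, fell by 0.57, from 14.8, 12.8 and 12.3 to 8.09, 9.31 and 8.47. For Frem1, Ccnd2, Pik3c2b and Hand2 the 12/- libraries lay below all 12 libraries labelled normal, which held for 98 of all genes (0.929%). These genes were called against the +/- libraries, which are among the 12, and that favours the separation.

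Alg14, an enzyme of N-glycan assembly, was different: it stood at 20.2, 19.2 and 15.7 FPKM in +/- and 11.5, 9.81 and 11.4 in 12/-, but at 11.0 ± 1.20 in +/+ and 11.9 ± 1.25 in +/12. Its fall of 0.70 ± 0.13 thus set apart the +/- group and not 12/-. The sixth, Mir374, a microRNA gene outside the naming rule, was listed at 23.4, 148 and 10.4 in +/- and 0 in every 12/- and +/+ library. Such short transcripts are poorly measured by this kind of library. None of the 6 falls was called without the 2 shallow libraries, or with the number range as a covariate, and each kept its sign in the alternatives in which it was tested.

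**Figure D4:**
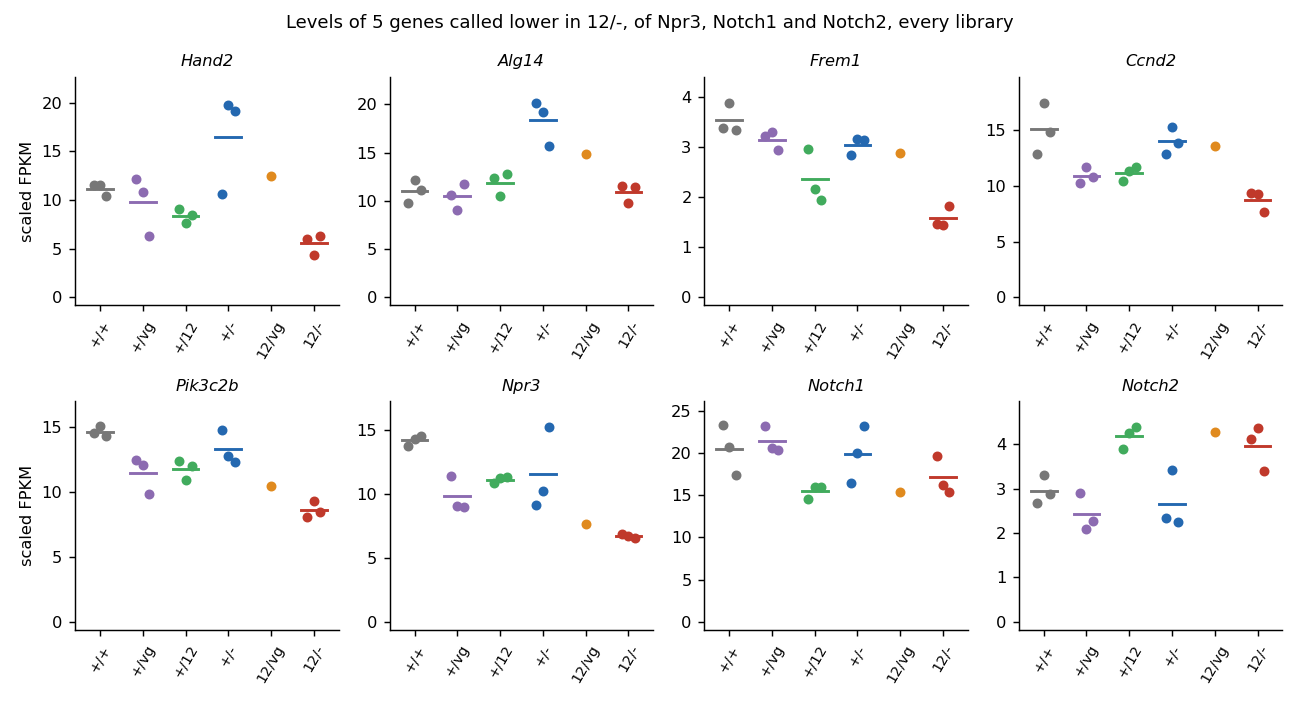
Scaled FPKM of 5 genes that fell and of Npr3, Notch1 and Notch2 for every library, in 6 genotype groups, with 1 point per library and a bar at the group mean. Hand2 and Alg14 are higher in +/- than in the other groups labelled normal, whereas Frem1, Ccnd2 and Pik3c2b are lowest in 12/-.

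A pair of lists was lower in 12/- by median without a single gene passing in limma. Of 28 genes for cholesterol and fatty acid synthesis, 4 differences were positive and the median was -0.30. For 11 of them the 12/- libraries lay below those of +/-, beside 6.41% of all genes, and 10 reached an unadjusted p under 0.05 downward, beside 5.01%. Sqle, squalene epoxidase, was at 38.9, 47.0 and 36.5 FPKM in +/- and 22.1, 24.0 and 26.1 in 12/-, a difference of -0.73 (adjusted p = 0.0894 by limma). Of 11 interferon-stimulated genes, 2 differences were positive and the median was -0.34, which was -0.12 without the shallow libraries, of which only +/- replicate 2 is in this comparison. The values included Rsad2 at -0.87 (adjusted p = 0.131 by limma), and at an unadjusted p under 0.05 there were 2 higher and 2 lower. The lists of cushion mesenchyme (18 tested), immediate-early genes (19), guidance cues (19) and shear-responsive genes (10) also had 0 called genes by limma. Their medians were -0.01, 0.11, 0.09 and 0.04, and at an unadjusted p under 0.05 they had 0, 2, 1 and 2 genes higher and 2, 0, 0 and 0 lower.

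The 12 allele also occurred opposite a wild-type allele, so its difference could be set beside a second pair of groups that shares no library with the first. Against +/+, the +/12 group had 0 genes called by limma in either direction, while an unadjusted p under 0.05 was reached by 321 genes upward and 246 downward. The difference of differences, (12/- minus +/-) minus (+/12 minus +/+), tests whether the 12 allele went with another change opposite a null allele than opposite a wild-type allele. It was positive for all 54 risers and negative for all 6 falls, but the 54 and the 6 were chosen on 1 of the 2 differences in it. By its own test it was called for 5 genes, all positive (0.0474% of genes), and for 0 negative. At an unadjusted p under 0.05 it was positive for 371 genes (3.52%) and negative for 321 (3.04%). All +/12 libraries were in the lower number range and all +/+ libraries in the higher, so in that second pair the range and the genotype cannot be told apart.

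Adm had the largest called value, 2.30 (n = 3 in each of 4 groups; adjusted p = 0.0456 by limma), with means of 0.972 ± 0.136 in +/+, 1.44 ± 0.181 in +/12, 1.56 ± 0.757 in +/- and 14.7 ± 4.74 in 12/-. The same order of size was seen for Ndufa4l2, at 2.27, whose difference between +/12 and +/+ was 0.28. Tpi1 followed with 1.64, and its means were 88.5 ± 13.6 in +/+ and 88.5 ± 15.6 in +/12. Plod2 had 1.29 and Ero1l 1.12. In each of these 5 genes 3 genotypes stood close together and 12/- stood apart. Bnip3, with 2.51, and Slc2a3, with 1.81, did not pass this test. The glycolytic list had a positive value for 15 of its 17 genes, beside 49.9% of all genes, and a median of 0.90, beside 0.00. All 17 were already positive in 12/- minus +/-, which is part of this value, so the count is favoured in advance. None of the 5 was called without the 2 shallow libraries, with the number range as a covariate or without scaling, and each kept a positive value in every alternative in which it was tested.

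**Figure D5:**
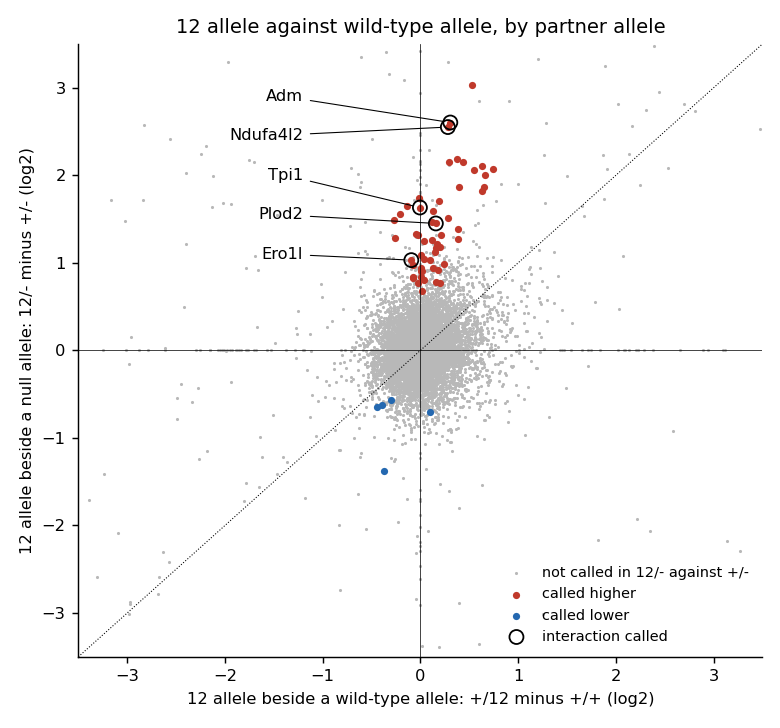
Difference between a 12 and a wild-type allele on the log2(scaled FPKM + 1) scale, opposite a null allele (vertical) and opposite a wild-type allele (horizontal), 1 point per gene, with genes called in 12/- against +/- in colour and the 5 genes called for the difference of differences circled. The red points lie above the dotted diagonal of equal differences, and 48 genes lie beyond the 3.5 limit.

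Among the replicates of 12/-, replicate 1 was the highest of the 3 for 33 of the 54 risers and replicate 2 the lowest for 33. Among the groups labelled normal, +/- had the lowest mean for 34 of the 54 risers, a count favoured because the risers were called against +/-. Of the 54, 36 were also called in 12/- against +/+ and 20 in 12/- against +/12, comparisons that share the 12/- libraries with this one. Those comparisons called 57 and 22 genes higher in all (0.54% and 0.209%) and 7 (0.0664%) and 0 lower by limma, and at an unadjusted p under 0.05 the second had 208 lower. The 12/vg library, from embryos labelled partly impaired, lay above all 3 libraries of +/- for 34 of the 54, beside 2392 of all genes (22.7%). The 54 were called against these same +/- libraries, which favours that count. It lay above all 12 libraries labelled normal, +/- among them, for 20 of the 54, beside 1448 of all genes (13.7%).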

How the data were processed

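RNA of sorted CD31+ cells was sequenced in 16 tagmentation libraries, as the labels' protocols state. Each deposited table lists 28107 RefSeq transcripts with FPKM, coverage and a status for each, per the file headers. The submitters' processing notes name TopHat2 2.0.9 and the build mm9. No source used here gives the quantifier's version, the read length or the strandedness, so overlapping, antisense and near-identical genes are uncertain. The deposited coverage (signal) divided by FPKM is constant within a library and gives its aligned gigabases, between 1.11 and 1.80 in 14 libraries. FPKM is not a count, so no count test or counting interval was used.

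FPKM was summed over 22096 symbols with Python 3.11.15, 211 symbols with a status other than OK were left out, and the 10550 genes whose FPKM averaged 1 or more were tested. A median-ratio factor over 8610 genes scaled each library. limma 3.58.1 in R 4.3.3 (eBayes with trend) was fitted to log2(scaled FPKM + 1) of all 16 libraries in 6 groups, with 10 residual degrees of freedom, two-sided, and genes were called at a Benjamini-Hochberg adjusted p under 0.05. On simulated data for 12/- against +/- over 10550 genes, a log2 change of 1 was recovered for 77 of 100 genes and one of 2 for 91 of 100, with 9 false calls. The simulated noise was normal, independent between genes, equal in spread across libraries for each gene, and held no number range. The simulation therefore does not show how reliable the calls in these data are. Of 737 entries in 40 lists, 736 were matched to symbols.

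The members and lists were chosen with earlier results of these data known. Named genes are Notch1 and Notch2, the 15 largest called rises and 10 largest called falls with libraries apart (no predicted, clone, microRNA or small RNA genes, pseudogenes or sex genes), up to 6 called and 4 uncalled members of each list, core Notch, HIF and endothelial genes, and the called genes of the difference of differences. Some further uncalled members, as in the endocardial list, are named beyond this rule. Coordinates are of mm9 from the deposited tables, except promoter windows, which are of GRCm38.p6. The alternatives were other scalings, pseudocounts, filters and variance models, only the groups compared, the number range, leaving out shallow libraries and leaving out each replicate.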

Additional observations from a re-analysis of the deposited data

Results flagged for a closer look

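The difference between 12/- and +/- differed from that between +/12 and +/+ for 5 genes by the test of the difference itself (limma, adjusted p under 0.05), on the log2(scaled FPKM + 1) scale. The value was 2.30 for Adm, 2.27 for Ndufa4l2, 1.64 for Tpi1, 1.29 for Plod2 and 1.12 for Ero1l. Of the alternatives run for each gene, 6 of 23 called Adm, 5 of 23 called Ndufa4l2, 11 of 24 called Tpi1, 15 of 24 called Plod2 and 7 of 24 called Ero1l. Over these alternatives the value of Adm lay between 2.10 and 2.67 and that of Plod2 between 1.22 and 1.47, and the adjusted p of Plod2 between 0.00643 and 0.119. The value of Ndufa4l2, a gene near 0 in +/-, ran from 2.14 to 4.14. The part of the number range, which separates +/12 from +/+, was not tested beyond the covariate.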

How the results depend on the processing

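No paired analysis was possible because the labels carry no replicate numbers, and those used here follow the order of deposit. The number of genes called higher in 12/-, 54 as reported, was 5 with only the groups compared, 31 with the number range as a covariate and 4 with only the lower range, of which 3, 29 and 1 were among the 54, and it was between 18 and 127 when 1 library was left out. The number called lower, 6 as reported, was 2 without scaling, 3 without the filter, 0 with only the groups compared, 2 with robust moderation, 3 with array weights, 2 without the shallow libraries, and between 0 and 29 with 1 library left out, the highest being without +/- replicate 3. Without +/- replicate 2 that number was 2, and without 12/- replicates 1, 2 and 3 it was 1, 0 and 0, with 0 of the 6 among them in each case. The number called for the difference of differences, 5 as reported, was 0 without scaling, 1 with quantile normalization, 2 with a pseudocount of 0.1, 3 at a mean FPKM of at least 5, 1 with only the 4 groups, 2 with array weights, 0 with the range covariate and 0 without the shallow libraries. Leaving out 1 library gave between 0 and 12, with 0 without 12/- replicate 3, +/- replicate 2, +/12 replicate 3 or +/+ replicate 2, 1 without 12/- replicate 1 or 2, 3 without +/+ replicate 3, 8 without +/12 replicate 2 and 12 without +/- replicate 1. Where a group was left with 1 library, that library was assumed to vary like the others. Smaller fits have fewer residual degrees of freedom, and the cause of the other changes was not tested. The single genes that changed sign were all uncalled: with 1 library left out, Jag1 ran from -0.26 to 0.07 (without +/- replicate 3) and Hey1 from -0.39 to 0.06 (without 12/- replicate 3). Epas1 was -0.03 with the range covariate, and with only the lower range Epas1 was -0.34, Cdh5 -0.09 and Ramp3 -0.17. Depth limits low values most in +/- replicate 2, at 0.189 gigabases.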

Other observations

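The single 12/vg library, from embryos labelled as partly impaired, has no replicate and is described without a test. It is also shallow, at 0.262 gigabases. For the 54 genes that rose in 12/-, it reached the lowest 12/- library for 3 and lay above all 3 for 1, Pqlc3, at 8.19 FPKM beside 3.17, 4.39 and 2.23 in 12/-, a gene singled out after its values were seen. Tpi1 was at 135 FPKM in 12/vg, between the +/- values (64.9 to 77.8) and those of 12/- (196 to 246). Kcne3, at 47.7, and Slc16a3, at 27.2, also lay above every +/- library, and Slc16a3 was within the range of 12/- (24.9 to 33.9). Bnip3 was at 7.77, above +/- but far below 12/-, and Ndufa4l2 was listed at 0.

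The summed markers of each of 9 other cell types overlapped between the groups, although single markers did not always. Pdgfra was at 1.18, 0.970 and 1.48 FPKM in +/- and 0.633, 0.331 and 0.665 in 12/-, Pdgfrb at 0.896, 2.03 and 2.18 and at 0.163, 0.559 and 0.704, and Tagln at 2.25, 1.76 and 3.19 and at 4.78, 4.15 and 5.81. The part of these cells in the results was not tested. Summed markers of megakaryocytes and platelets, which also carry CD31, ran from 484 to 1810 FPKM in 12/- and from 628 to 1140 in +/-. Erythroid markers ran from 85.2 to 344 and from 100 to 246. Yolk sac endoderm markers stood at 93.5 FPKM in the shallow +/- replicate 2, against 3.57 and 8.82 in the other +/- libraries and 4.99 to 8.97 in 12/-. Ptprc, the common marker of white blood cells, did not exceed 0.0478 FPKM in any of the 6 libraries. Other blood markers were present: Runx1 ran up to 4.76 FPKM, in 12/- replicate 3. Csf1r was low but without overlap, at 0.0769, 0 and 0.087 in +/- and 0.296, 0.133 and 0.29 in 12/-. Summed markers of blood progenitors and macrophages ran from 43.4 to 73.8 in 12/- and from 40.1 to 58.1 in +/-.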
